A study of Mus musculus with 8 samples.

Results

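Setbp1, Pakap, Lhfp, Trio, Samd4 and D5Ertd579e are 6 of 21887 protein-coding mouse genes. They were selected on the covered length and the score of the H3K79me2 peaks found in them in cells grown with the inhibitor EPZ5676. Because the EPZ5676 peak list chose them, its values are given as a description and no test was made. Peaks of that list are called residual below, whether or not the control list had a peak at the same place. The assay was ChIP-seq, in which chromatin carrying this histone mark is pulled down with an antibody and sequenced. The cells were cultured spermatogonial stem cells, the self-renewing germ cells of the testis. The cells came from 7-day-old mice of the strain B6.129S7-Gt(ROSA)26Sor/J, which carries a LacZ reporter active in all tissues, so both groups share that allele. Both groups grew on SNL 76/7 feeder cells without serum, with GDNF at 10 ng/mL and FGF2 at 0.5 ng/mL, and the protocols name no step that removed the feeder cells before fixation. The EPZ5676 group received 2 µM EPZ5676 for 7 days. The control group received vehicle, which the protocols name as DMSO and the short sample descriptions as ethanol. The design has 8 samples in 4 groups of 2 (H3K79me2 and input chromatin of each culture type), and 2 peak lists were analysed, 1 per condition, so no value below has a replicate error. Read depth per sample is unknown here. Because the cultures were profiled in bulk, a weak peak carried by many cells and a strong one carried by few cannot be told apart.

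H3K79me2 is laid down by DOT1L, the only well-established methyltransferase of this residue, and typically spreads from just downstream of the start of an active gene into its body, in step with transcription elongation. EPZ5676 (pinometostat) blocks DOT1L by occupying the site of its methyl donor. No dedicated demethylase of the mark is firmly established, and its loss under inhibition is thought to rest largely on dilution by new histones and on histone exchange.

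The 6 genes are not members of one pathway. Setbp1 encodes an AT-hook DNA-binding protein that binds SET, an inhibitor of the phosphatase PP2A. Pakap is a compound locus that joins Palm2, of the membrane-associated paralemmins, with Akap2, which anchors protein kinase A. Trio encodes an exchange factor that activates Rac1, RhoG and RhoA and thereby remodels actin. Lhfp encodes a membrane protein with several transmembrane segments, Samd4 encodes Smaug1, which binds messenger RNAs and represses them, and D5Ertd579e is the mouse counterpart of KIAA0232, a gene of little-known function.

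The annotated starts of 3 of these genes frame the positions that follow, because the mark is read from the start into the body. RefSeq windows of 300 bases (GRCm38.p6, 250 bases before to 50 after the start) were at hand for 5 of the 6 genes, with 10 windows in all, and Setbp1 is named without one. The first and the third Pakap window are shown because the residual peaks clustered after the third and not after the first. The Trio and Lhfp windows are shown because the peaks began shortly after them. Capitals mark each CG pair, a motif of 2 letters that reads the same on both strands and can overlap no other copy of itself.
Pakap, the first start, chr4:57434225-57434524, plus strand: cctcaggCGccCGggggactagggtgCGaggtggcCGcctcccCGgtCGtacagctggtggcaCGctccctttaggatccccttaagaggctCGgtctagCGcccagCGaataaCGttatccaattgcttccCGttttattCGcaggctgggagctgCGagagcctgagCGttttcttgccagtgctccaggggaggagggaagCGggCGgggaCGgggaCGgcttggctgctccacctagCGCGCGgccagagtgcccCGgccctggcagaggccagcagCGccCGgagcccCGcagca
Pakap, the third start, chr4:57567998-57568297, plus strand: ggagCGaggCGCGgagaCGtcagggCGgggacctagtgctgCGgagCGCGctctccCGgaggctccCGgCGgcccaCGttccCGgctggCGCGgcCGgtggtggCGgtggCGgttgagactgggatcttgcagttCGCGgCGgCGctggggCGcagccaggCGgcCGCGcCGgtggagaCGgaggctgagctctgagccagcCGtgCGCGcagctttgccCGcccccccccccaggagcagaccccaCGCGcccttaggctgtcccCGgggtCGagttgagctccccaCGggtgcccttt
Lhfp start, chr3:53041297-53041596, plus strand: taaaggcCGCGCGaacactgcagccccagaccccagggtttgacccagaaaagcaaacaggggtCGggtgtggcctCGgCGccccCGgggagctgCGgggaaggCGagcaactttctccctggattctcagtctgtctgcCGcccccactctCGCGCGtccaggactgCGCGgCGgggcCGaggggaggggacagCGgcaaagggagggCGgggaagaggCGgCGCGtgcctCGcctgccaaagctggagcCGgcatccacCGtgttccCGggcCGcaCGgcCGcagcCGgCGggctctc
Trio start, chr15:28025799-28026098, minus strand: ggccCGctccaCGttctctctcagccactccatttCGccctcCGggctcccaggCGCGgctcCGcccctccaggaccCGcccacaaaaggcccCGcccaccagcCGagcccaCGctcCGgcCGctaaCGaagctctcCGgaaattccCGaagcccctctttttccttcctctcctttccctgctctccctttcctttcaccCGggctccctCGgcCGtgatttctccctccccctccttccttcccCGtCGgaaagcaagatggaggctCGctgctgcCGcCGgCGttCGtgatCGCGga

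At least 1 CG pair was found in 94.6% of all 32851 RefSeq windows of this length, with a median of 7 pairs. The first Pakap window had 26 CG pairs and the third window had 37, a number that 5.58% of all windows reached. Lhfp had 31 pairs, D5Ertd579e 30, Trio 28 and the first Samd4 window 27. None of these 6 windows was covered by a peak of either list. In the control list the next peak downstream began 675 bp after the Trio start, 517 bp after the D5Ertd579e start, 1788 bp after the Lhfp start and 1843 bp after the first Samd4 start. In the EPZ5676 list the corresponding distances were 2473, 972, 1822 and 5474 bp. At Lhfp the first residual peak thus lay almost at the position of the first control peak, while at Trio and Samd4 it lay further in.

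Across the 6 genes the control list had 204 peaks covering 457885 bp and the EPZ5676 list had 162 peaks covering 103511 bp. The 6 genes held 2.23% of the covered length of the whole EPZ5676 list, against 0.271% for the control list. An EPZ5676 peak was present in 12.3% of all protein-coding genes and in 6 of 6 here, which the choice of genes fixed. Of the 162 EPZ5676 peaks, 118 overlapped a control peak by at least 1 bp, or 72.8%, and 82 lay wholly inside control peaks. These are all EPZ5676 peaks of the 6 genes and not a sample of peaks. The overlap differed by gene, with 17 of 42 peaks in Setbp1 and 26 of 26 in Trio. In the remaining 9020 peaks of the list, 55.4% overlapped a control peak. Of the control-covered length of the 6 genes, 15.0% remained under an EPZ5676 peak. The median over all 2228 genes with peaks in both lists was 3.46%. At least 10% of the control-covered length was still covered in 4 of the 6 genes and in 17.7% of the 2228. The genes were chosen on the length or score of their EPZ5676 peaks, with which these shares are bound up, so nothing is read from them.

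**Figure D1:**
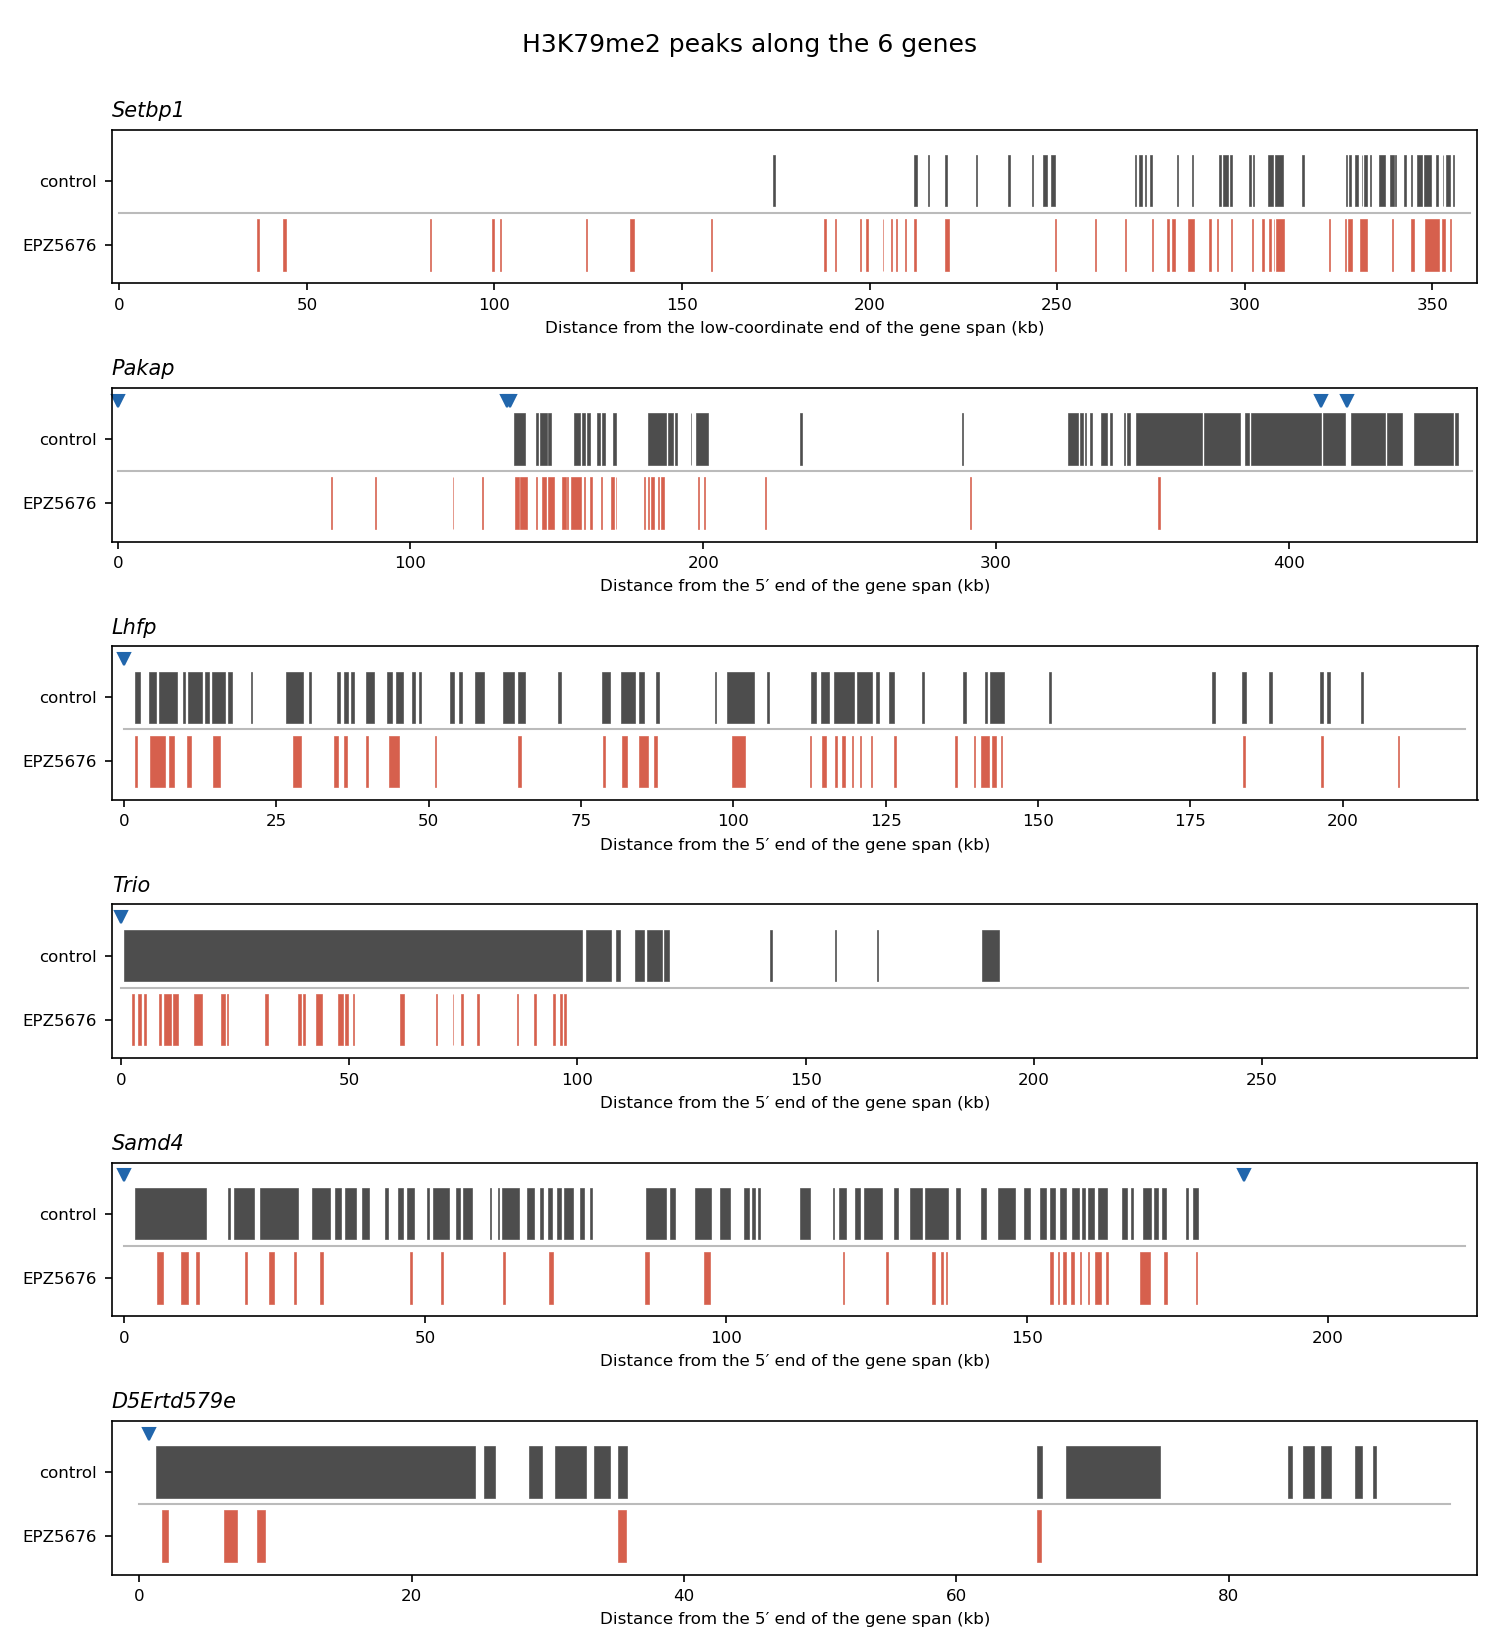
H3K79me2 peaks of the control list (grey, upper row) and of the EPZ5676 list (red, lower row) along each gene, with the distance in kb from the 5′ end of the span, or from the low-coordinate end for Setbp1; blue triangles mark RefSeq starts, and each bar is 1 peak drawn to scale with a hairline edge. The 26 Trio peaks all lie under 1 control peak of 100330 bp, whereas in Pakap the residual peaks and the widest control peaks lie in different stretches.

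There were 3 arrangements. In Trio and D5Ertd579e every residual peak lay inside a control peak. In Lhfp and Samd4 the residual peaks followed a long row of separate control peaks, and in Setbp1 and Pakap many of them lay where the control list had no peak. The share of EPZ5676-covered bases inside control peaks was 100% in Trio and D5Ertd579e, 83.2% in Samd4, 75.5% in Lhfp, 57.5% in Pakap and 32.5% in Setbp1. Of the 2228 genes with peaks in both lists, 82.3% had every EPZ5676-covered base inside control peaks.

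**Figure D2:**
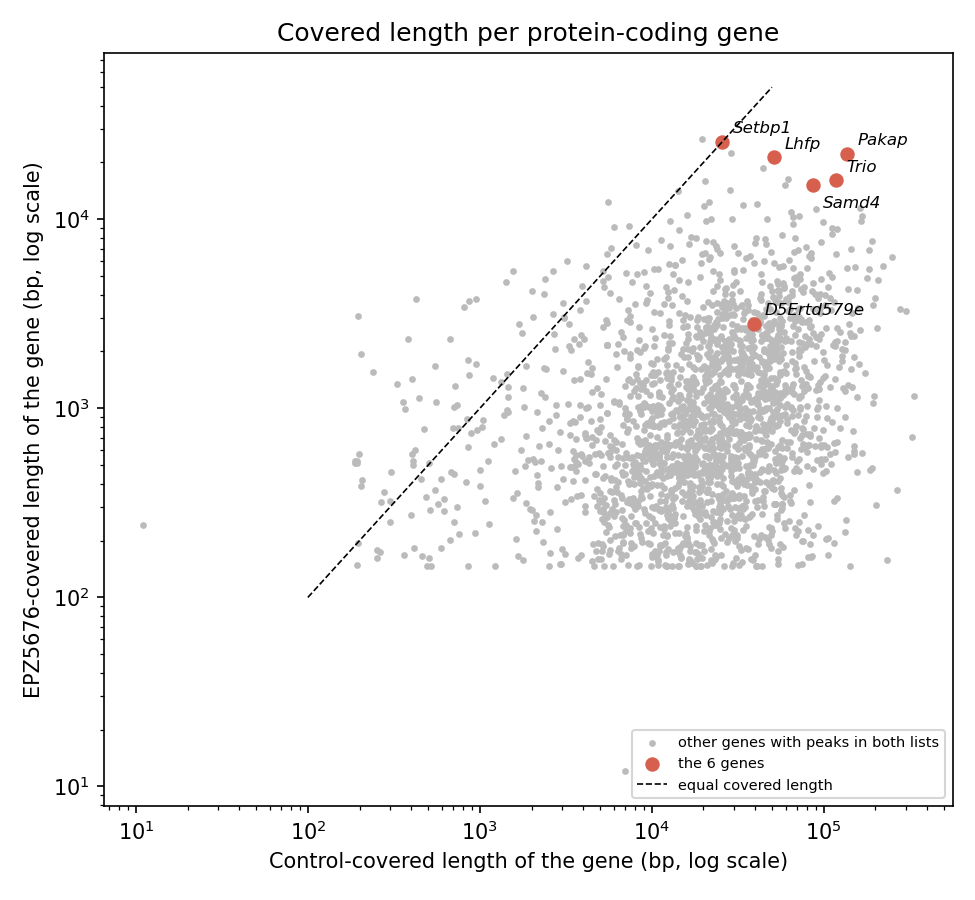
Covered length in bp of each protein-coding gene with peaks in both lists, control on the horizontal and EPZ5676 on the vertical axis, both on log scales; red points are the 6 genes and the dashed line marks equal lengths. Setbp1 sits on the line (25665 and 25709 bp), and D5Ertd579e sits among the other genes at 2802 bp.

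Setbp1 (chromosome 18, 78750378 to 79110444, mm10) was covered to the same extent in both lists, but largely at different bases. The control list had 40 peaks over 25665 bp of the 360067-bp span, and the EPZ5676 list had 42 peaks over 25709 bp. No gene with peaks in both lists had more EPZ5676 peaks. Coverage that was longer after EPZ5676 than in the control was found in 3.05% of the genes with both kinds of peak. Only 8354 bp were covered in both lists, and 17355 bp were covered after EPZ5676 alone. The start of Setbp1 was not placed, so positions are counted from the low-coordinate end. The lowest control peak began 174 kb from that end. Below it lay 8 EPZ5676 peaks with 3451 bp in all, and none of their bases was covered in the control list.

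Toward the high-coordinate end of Setbp1 both lists grew denser. The last 36 kb (324 to 360 kb) held 44.7% of the control-covered and 35.4% of the EPZ5676-covered length. The widest residual peak, of 3727 bp (79098421 to 79102147), covered 2037 bp of control peaks. Other wide ones measured 2123 bp (79058837 to 79060959) and 2120 bp (79080995 to 79083114). The 25 residual peaks that overlapped no control peak lay a median of 10584 bp from the nearest one, and at most 137225 bp. All 40 control peaks were under 5 kb wide (189 to 2042 bp), with fold enrichments of 2.04 to 2.63, where the control list had a median of 2.30. The residual peaks had folds of 2.64 to 3.10, where the EPZ5676 list had a median of 2.75. The fold of a peak is the authors' value and is compared only within its own list.

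The control list reaches down to a −log10 p of 2.36 and the EPZ5676 list only to 4.03. Both lists end at about the same −log10 q, 1.05 (control) and 1.04 (EPZ5676). Holding the control list to a −log10 p of 4.03 therefore makes it the stricter list by −log10 q, and does not match the lists. With the control list held to 4.03, Setbp1 kept 4 control peaks over 1239 bp, and 2 of the 42 residual peaks overlapped one. The control coverage of Setbp1 thus came almost wholly from peaks below that level.

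In Pakap (chromosome 4, 57434475 to 57896984), 34 peaks of the control list covered 137289 bp and 27 EPZ5676 peaks covered 22287 bp. The residual peaks gathered in the stretch from 139 to 185 kb after the 5′ end, which held 70.0% of the EPZ5676-covered length and 11.5% of the control-covered length. In that stretch the lists covered nearly the same length, 15756 bp (control) and 15604 bp (EPZ5676), of which 8034 bp were shared. It begins a few kb after the second and the third annotated start (57567830 and 57568248), which lie 133 and 134 kb into the span. The first control peak began 1441 bp and the first residual peak 1848 bp downstream of the third start.

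The widest control peaks of Pakap lay elsewhere and were almost bare after EPZ5676. The part from 348 kb to the 3′ end (463 kb), delimited after its values were seen, had 9 control peaks over 98927 bp with folds of 2.25 to 3.67. Among them were peaks of 22689 bp (57782290 to 57804978) and 23864 bp (57821557 to 57845420). A single residual peak of 694 bp lay there, or 0.702% of the control-covered length. The fourth and the fifth annotated start of Pakap (57845248 and 57854562) also lie in this part, 411 and 420 kb into the span. All 300 bases of the fourth window were under a control peak, and the fifth window was under no peak. Between the third start, at 134 kb, and 348 kb, 25 control peaks covered 38362 bp with folds of only 2.05 to 2.46, 22 EPZ5676 peaks covered 20295 bp, and 31.6% of the control-covered length remained covered. Over the whole gene, 3.38% of the length of the 8 control peaks of at least 5 kb was still covered, against 27.1% for the 26 narrower ones. In the full lists those shares were 1.91% and 1.26%.

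Upstream of the second Pakap start, over 133 kb, the control list had 0 peaks and the EPZ5676 list had 4 peaks with 1298 bp. The first start, rich in CG pairs as shown above, was followed by no control peak for 135214 bp and by no residual peak for 72777 bp. With the control list held to a −log10 p of 4.03, the 9 control peaks left in Pakap covered 98912 bp, and 1 of the 27 residual peaks overlapped one. The lncRNA gene Gm52699 inside Pakap held 5 of the residual peaks (3134 bp) and 6344 bp of control coverage, so those bases cannot be assigned to Pakap alone.

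Trio (chromosome 15, 27730649 to 28025848, minus strand) had the plainest arrangement. The control list had 10 peaks over 117867 bp, of which 1 peak ran 100330 bp (27924844 to 28025173) from 675 bp after the start, with a fold of 3.89. The EPZ5676 list had 26 peaks over 16132 bp, and all 26 lay wholly inside that domain. None of the 9 other control peaks of Trio, which covered 17537 bp, overlapped a residual peak, among them one of 5 kb or more. The 26 peaks were narrow, from 165 to 1735 bp with a median of 488 bp, and were separated by a median gap of 2972 bp.

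Residual coverage within the Trio domain was densest toward the start of the gene. Of the first 25.1 kb of the domain, 28.9% was covered by 9 residual peaks. The share was 18.2% in the next stretch of that length, 7.45% in the one after it and 9.72% in the last. The widest residual peaks, of 1735 bp (28008165 to 28009899) and 1487 bp (28014973 to 28016459), both lay in the first stretch. The residual folds ran from 2.64 to 3.19. At a −log10 p of at least 4.03 the control list still held 109820 bp of Trio, and all 26 residual peaks still overlapped it. The predicted gene Gm29975 overlaps Trio and shares 7 of the residual peaks (4798 bp).

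**Figure D3:**
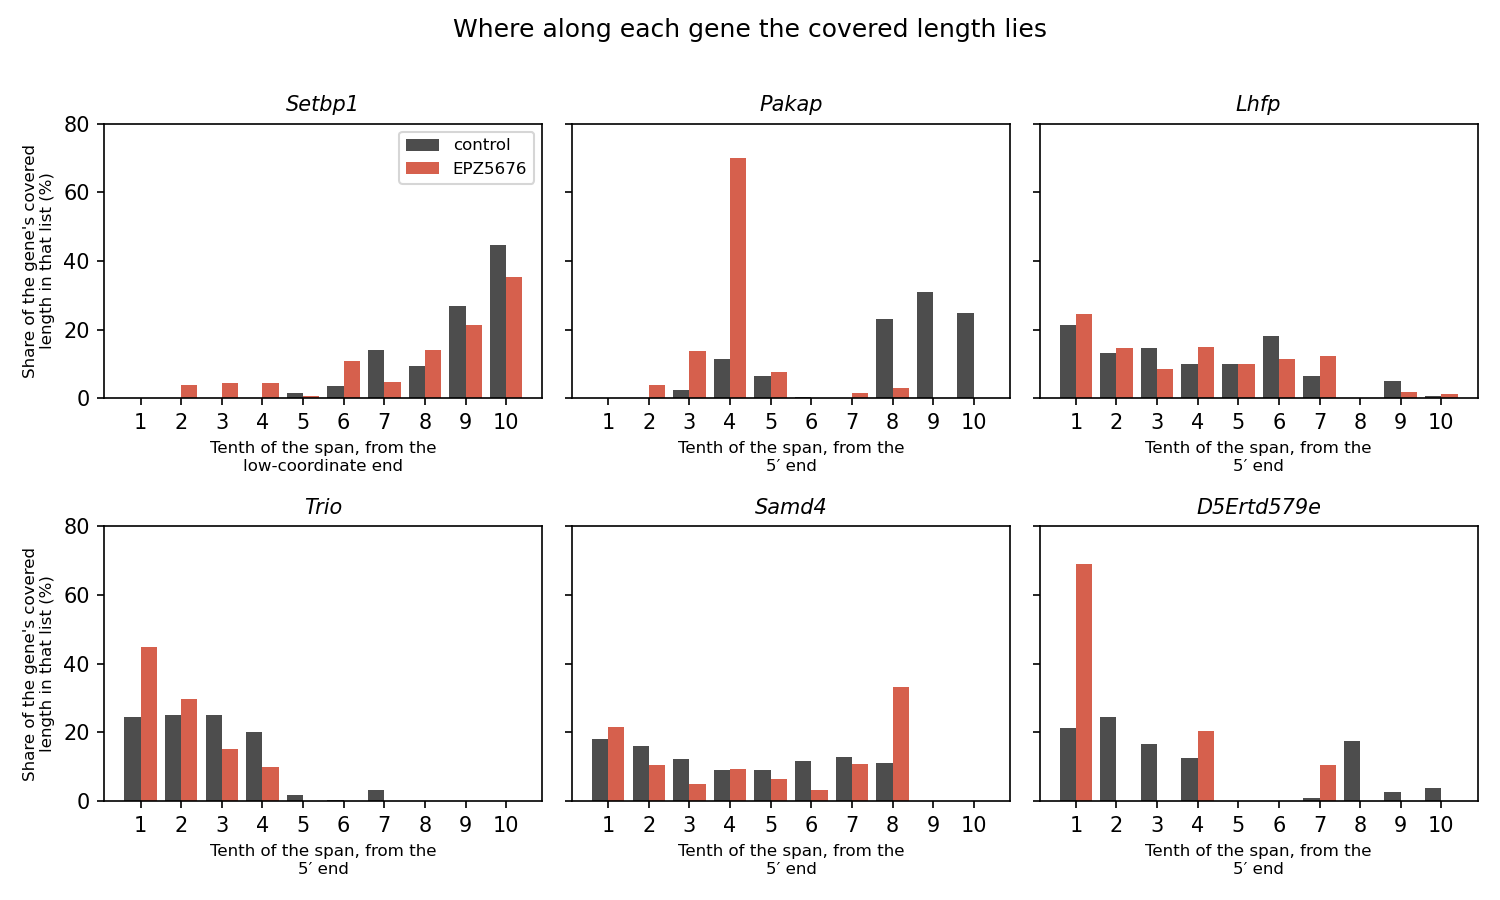
Share of each gene's covered length, in percent, that lay in each of 10 equal parts of the span, for the control list (grey) and the EPZ5676 list (red), counted from the 5′ end, or from the low-coordinate end for Setbp1. The Pakap bars stand apart most, with 70.0% of the residual length in part 4 and most of the control length in parts 8 to 10, while the Lhfp bars run together.

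Lhfp (chromosome 3, 53041547 to 53261679) carried a row of short peaks in both lists over about the same stretch. There were 49 control peaks over 51732 bp and 33 EPZ5676 peaks over 21379 bp, so 23.5% and 9.71% of the span were covered. Of the 33 residual peaks, 28 overlapped a control peak, and the other 5 lay at most 5728 bp from one. Of the control-covered length, 31.2% remained covered. The first 22 kb held 21.4% of the control-covered and 24.7% of the EPZ5676-covered length, and neither list had a covered base from 154 to 176 kb. The widest residual peaks measured 2462 bp (53045798 to 53048259) and 2145 bp (53141317 to 53143461), the latter wholly inside a control peak of 4504 bp. The 25 control peaks under a residual peak had a median width of 1176 bp, against 470 bp for the 24 others, with median folds of 2.26 and 2.18. Wide peaks can be hit more easily than narrow ones. No control peak in Lhfp reached 5 kb or a fold above 2.62. With the control list held to a −log10 p of 4.03, 7 control peaks over 7024 bp remained and 4 residual peaks overlapped one. The lncRNA gene C130075A20Rik overlaps Lhfp and shares 4539 control-covered and 164 residual bp.

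Samd4 (chromosome 14, 46882965 to 47105817) had the largest number of control peaks of the 6 genes, 58 over 86105 bp, and 29 EPZ5676 peaks over 15202 bp. Residual peaks were spread along the marked part of the gene, with 26 of 29 overlapping a control peak and the other 3 within 672 bp of one. Both lists ended at about the same place: from 201 to 223 kb neither covered a base, and from 178 to 201 kb the control list covered 71 bp and the EPZ5676 list 9 bp. The second annotated start of Samd4 (47068977) lies 186 kb into the span, beyond the last peak of both lists. The widest control peak, of 11852 bp (46884808 to 46896659, fold 2.66), began 1843 bp after the start and held 3 residual peaks with 2974 bp. The residual length was greatest from 156 to 178 kb, with 5046 bp against 9455 bp in the control list, which is 33.2% of all residual bases of Samd4. That stretch included the widest residual peak, of 1556 bp (47051826 to 47053381). Of the control-covered length of Samd4, 14.7% was still covered. With the control list held to a −log10 p of 4.03, 8 of the 29 residual peaks overlapped a control peak. The lncRNA genes Gm52120 (7482 control-covered and 926 residual bp) and Gm52121 (4262 and 182 bp) overlap Samd4 and share those bases.

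D5Ertd579e (chromosome 5, 36600483 to 36696732, minus strand) is here for the score of its peaks and not for their length. The control list had 13 peaks over 39227 bp and the EPZ5676 list had 5 peaks over 2802 bp, which placed the gene at rank 314 by residual length. The other 5 genes stood at ranks 2 (Setbp1), 4 (Pakap), 5 (Lhfp), 8 (Trio) and 10 (Samd4). The ranks between them belonged to Maml2 (1), Nrp1 (3), Cald1 (6), Parva (7) and Egfr (9), which are not among the 6. Just outside, Stard13 stood at 11 with 15114 bp, against 15202 bp for Samd4.

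Of the 5 residual peaks of D5Ertd579e, 2 had the highest −log10 q of the whole EPZ5676 list. They measured 572 bp (36661013 to 36661584, −log10 q 19.1, fold 5.22) and 298 bp (36630498 to 36630795, −log10 q 17.2, fold 3.46), and the next peak of the list reached 4.93. The 11 other EPZ5676 peaks with a fold within 0.05 of 3.46 had a median −log10 q of 2.96 and at most 4.44, so the score of the shorter peak was high for its fold. Each of these 2 peaks lay wholly inside a narrow control peak. Those control peaks measured 672 bp (36660925 to 36661596, fold 3.04, −log10 q 12.5) and 376 bp (36630453 to 36630828, fold 3.07, −log10 q 20.4). In the control list too their −log10 q stood out, at ranks 23 and 6 among 22592 peaks under 1 kb. By fold they stood out less, as 7569 and 7398 control peaks had a fold at least as high. The 576 control peaks within 0.05 of a fold of 3.04 had a median −log10 q of 5.47. The 568 control peaks within 0.05 of a fold of 3.07, that one included, had a median −log10 q of 5.62. The pair of residual peaks frames the predicted protein-coding gene Gm32584 (36630163 to 36661658), which lies inside D5Ertd579e. One ended 74 bp before its high-coordinate end, where RefSeq places its start (36661658, minus strand), and the other began 335 bp from its low-coordinate end. No other peak of either list touched Gm32584. Whether sequencing reads map uniquely at these 2 places was not tested, so their scores are not read as a measure of the mark.

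**Figure D4:**
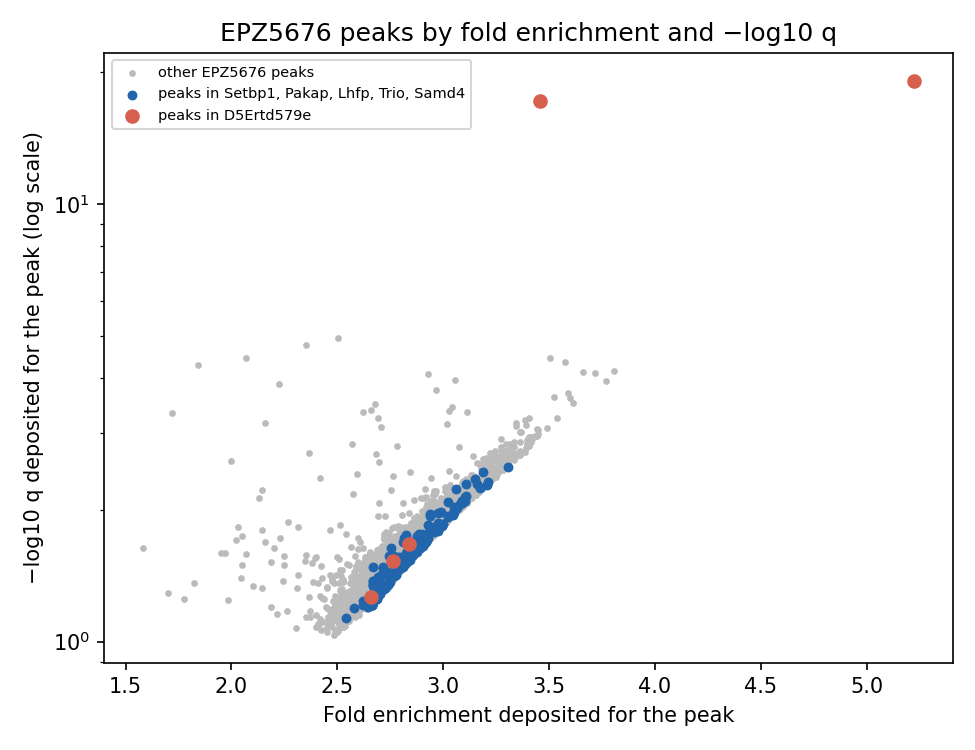
All 9182 EPZ5676 peaks by the deposited fold enrichment (horizontal) and −log10 q (vertical, log scale); blue points are peaks in Setbp1, Pakap, Lhfp, Trio and Samd4, and red points are the 5 peaks in D5Ertd579e. A pair of red points, at −log10 q 17.2 and 19.1, stand above all other peaks, and the other 3 lie within the cloud.

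The other 3 residual peaks of D5Ertd579e lay near its start, inside the control domain of 23449 bp (36672056 to 36695504) with the highest fold of any control peak in the 6 genes, 5.41. They measured 576, 951 and 405 bp, with a −log10 q of 1.26 to 1.67. Together they covered 1932 bp of that domain. The other control peak of at least 5 kb, of 6850 bp, held no residual peak. Of the joint length of those 2 control peaks, 6.38% was covered. Without the pair of highest score, D5Ertd579e kept 1932 bp of residual coverage, all of it in the first 9.62 kb of the span.

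In the 100 kb next to each end of the spans, the EPZ5676 list covered at most 1247 bp, on the high-coordinate side of D5Ertd579e. It covered 0 bp on 6 of the 12 sides. These lengths were not compared with the density of the whole list. The control list covered 46229 bp on the low-coordinate side of D5Ertd579e, where no residual peak was found, and 0 bp on both sides of Setbp1.

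Genes of the same families and partners of the 6 proteins had between 0 and 4156 bp of residual coverage, against 2802 to 25709 bp in the 6 genes. The 6 genes were chosen on that coverage or its score, so nothing is read from the contrast. The ranges also overlap, as Cnot1 (4156 bp), Kalrn (3435 bp) and Cnot2 (2876 bp) exceeded D5Ertd579e (2802 bp). The median over all protein-coding genes was 602 bp (control list) and 0 bp (EPZ5676 list), and a control peak lay in 52.7% and an EPZ5676 peak in 12.3% of all protein-coding genes. Of 6 partners of Setbp1, all 6 had a control peak and 2 an EPZ5676 peak: Ppp2ca, the catalytic subunit of PP2A (21689 control-covered and 2005 residual bp), and Kmt2a, a histone methyltransferase gene (31277 and 266 bp). Set itself had 7775 control-covered bp and no EPZ5676 peak. Of the 6, 3 lie on X, where the EPZ5676 list had no peak in them.

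The counts that follow stand beside the same shares of all protein-coding genes, 52.7% with a control peak and 12.3% with an EPZ5676 peak. Of 8 paralemmin and protein kinase A genes related to Pakap, 7 had a control peak and 1 an EPZ5676 peak, namely Prkar2a, a regulatory subunit gene (16996 and 315 bp). Prkacb, a catalytic subunit gene, had 51182 control-covered bp and no residual peak. Of 5 relatives of Lhfp, only Lhfpl2 had control coverage (108255 bp) and only Lhfpl3 had residual coverage (977 bp), so neither had both. Of 6 Trio relatives and target GTPases, all 6 had a control peak and 4 an EPZ5676 peak. Kalrn, the paralogue of Trio, had 25868 control-covered and 3435 residual bp, Rac1 had 20389 and 771 bp, Rhog 10419 and 578 bp, and Rhoa 24723 and 0 bp. Of 12 genes made up of Samd4b, the paralogue of Samd4, and the CCR4-NOT deadenylase complex, which Smaug proteins recruit, all 12 had a control peak and 5 an EPZ5676 peak. Cnot1, the scaffold subunit, had 32513 and 4156 bp, Cnot2 had 75285 and 2876 bp, and Samd4b had 21657 and 0 bp.

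The genes most like each of the 6 were found by the distance between the log2 covered lengths in the 2 lists. Setbp1 was nearest to Nrp1, the neuropilin-1 gene (distance 0.26, with 28969 control-covered and 22455 residual bp), and then to Maml2, a Notch coactivator gene (0.39). Lhfp was nearest to Cald1, the caldesmon gene (0.29), and Parva, a focal adhesion gene (0.47). Samd4 was nearest to Phlpp1, a phosphatase gene (0.42), and Parva (0.48), and Trio to Phlpp1 (0.63) and Med13l (0.67). Pakap had no close match, with Med13l, of the Mediator kinase module, at 0.99 and Cacna1c, a calcium channel gene, at 1.14. D5Ertd579e had close matches in Cmtm4 and Sec24b (0.07 each). The share of residual bases inside control peaks was 40.0% in Maml2, which like Setbp1 had more residual (26739 bp) than control coverage (19629 bp). It was 71.1% in Nrp1 and 56.8% in Cald1, and 100% in Parva, Phlpp1 and Med13l.

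Cell type markers were counted in the same way, where a control peak lay in 52.7% and an EPZ5676 peak in 12.3% of all protein-coding genes. No difference between marker lists was tested, and lists this short allow little to be read from 0 or a few EPZ5676 peaks. Of 12 genes of undifferentiated spermatogonia and germ cells, all 12 had a control peak, with 389930 bp in all, led by Zbtb16, the self-renewal factor PLZF (168701 bp). None had an EPZ5676 peak, so Zbtb16, Gfra1, Ret and Ddx4 were all at 0 bp. Of 14 genes of fibroblast feeder cells, 9 had a control peak (55390 bp in all) and 4 an EPZ5676 peak (8872 bp in all), namely Prrx1 (3583 bp), Twist2 (2907 bp), Fbn1 (2141 bp) and Sparc (241 bp). Col1a2, Col3a1, Vim, Lox and Postn, also fibroblast genes, were at 0 bp in both lists. Of 10 genes of testis somatic cells, 2 had a control peak (9480 bp in all, with Sox9, Gata4, Star and Acta2 at 0 bp) and 1 an EPZ5676 peak of 179 bp. The part of feeder cells in the residual coverage of the 6 genes was not tested.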

How the data were processed

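H3K79me2 peaks were compared between 1 control list and 1 EPZ5676 list, both filed with replicate 1. The labels give 2 samples per group, but whether the lists pool replicates or use the inputs the sources used here do not say, and the aligner and peak caller are not given in them. The submitters' processing notes list the build mm10 and the tools Trimmomatic, deepTools and bcl2fastq (2.20.0.422). Per the labels' protocols, cells were fixed with 1% formaldehyde for 10 min. The lists have 9 columns and no header, in the layout of broad peaks. The deposited score equals −log10 q multiplied by 10 and cut to a whole number in 47770 of 47774 control peaks and in all 9182 EPZ5676 peaks. The fold enrichment the authors deposited is a linear ratio of signal to background. The deposited −log10 p and −log10 q served mainly to rank, filter or describe peaks within 1 list. Their lowest values were also set side by side between the lists. In addition, the control list was held to the lowest −log10 p of the EPZ5676 list (4.03) as an alternative. No column was left unmapped (0 columns).

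Gene spans came from RefSeq GRCm38.p6, the assembly named mm10, and strands and starts from the RefSeq promoter windows of that build. Covered lengths and overlaps of at least 1 bp were computed with Python 3.11.15, pandas 2.3.3 and scipy 1.17.1, tested on simulated intervals. Peaks of at least 5 kb were called wide. There was no replicate list, so no test was made and depth is unknown.

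The 6 genes and all gene lists were chosen with earlier results of these data known. Named genes are the 6, the 2 nearest genes of each by log2 covered length in both lists, genes overlapping them, and 8 lists of partners and markers. Genes that neighbour the 6 by rank or follow them in order were named after their values were seen. The alternatives changed the peak thresholds, peak width, overlap, joining of peaks and gene span.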

Additional observations from a re-analysis of the deposited data

How the results depend on the processing

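The number of EPZ5676 peaks in the 6 genes was 162 as reported, 21 with a −log10 q of at least 2 and 66 with peaks at least 500 bp wide. The share of EPZ5676-covered length inside control peaks was 66.6%. It became 27.8% with the control list held to the lowest −log10 p of the EPZ5676 list. It became 80.8% with the EPZ5676 list alone held to a −log10 q of at least 2 and the control list left whole. The share of control-covered length still covered was 15.0%, and became 10.4% and 2.58% under the same settings. The share of EPZ5676 peaks overlapping a control peak was 72.8%. It became 28.4% and 81.0% under those settings, 80.3% with peaks at least 500 bp wide, and 63.0% when 50% of the peak had to be covered. The −log10 p floor of 4.03 removes weak control peaks by construction, and makes the control list stricter by −log10 q than the EPZ5676 list. It left 1239 bp of control coverage in Setbp1, 7024 bp in Lhfp and 27149 bp in Samd4. With a −log10 q of at least 2, residual coverage fell to 1524 bp in Setbp1, 3307 bp in Pakap, 3905 bp in Lhfp, 4590 bp in Trio, 426 bp in Samd4 and 870 bp in D5Ertd579e. Joining control peaks up to 1000 bp apart, removing parts shared with another gene, extending the span by 2000 bp, or leaving out the 2 peaks of highest score (chosen after seeing the data) left these 4 values within 1.5 times. Peaks at least 500 bp wide left 17127 residual bp in Setbp1 and 8653 bp in Samd4. The mean position of residual coverage along D5Ertd579e was 19.4% of the span, and 6.6% without the pair of highest score or the shared parts. With a −log10 q of at least 2 it was 47.7%, where only that pair was left. In Samd4 that setting left a single peak of 426 bp, and the mean position moved from 42.9% to 70.1%. No paired analysis was possible because each condition has 1 peak list, and leaving out a replicate was not possible for the same reason.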

Other observations

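Genes next in order of residual length, chosen after their values were seen, included some with little or no excess of control coverage. Ptprm, a receptor tyrosine phosphatase gene, had 14182 control-covered and 14114 residual bp. Mecom, a transcription factor gene, had 5600 and 12400 bp. Tiam2, like Trio an exchange factor gene for Rac1, had 28571 and 14326 bp, and Fgfr2, an FGF receptor gene, had 20021 and 11747 bp. Med13l and Rxra, the retinoid X receptor alpha gene, were covered in the control by few peaks (3 and 2) over 161821 and 64355 bp, and kept 11435 and 10880 residual bp.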
